A study of Mus musculus with 10 samples.

Results

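The 90 genes described here were selected on their measured levels in mouse cells: they were higher, in both groups of cells derived by reprogramming, than in neural stem cells taken from brain. A gene was a member when its mean log2 level over the 3 arrays titled iPS and over the 3 arrays titled iPS-derived NSC was at least 7, and when both means lay at least 0.8 log2 units above the mean of the 4 brain NSC arrays. Of 18193 genes measured, 7303 met the limit on level in both derived groups, and 90 of these met both limits on the difference. Because these values chose the members, the differences from brain NSC are given as a description with no test. The difference between the derived groups was not itself a limit of the choice and was tested. It is made of the same group means that the choice used, so the choice shapes it, and its p-values are not free of the choice.

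The series asked how adult neural stem cells (NSC) change when Oct4 alone reprograms them. The brain NSC came from the brains of adult mice carrying the Oct4-eGFP transgene of the OG2 line and the neo/lacZ insertion at Rosa26, crossed with ICR females, and no vector is named for them. The induced pluripotent stem (iPS) cells were made from such NSC with a pMX retroviral vector carrying mouse Oct4 cDNA, and were grown from picked colonies on irradiated embryonic fibroblasts (MEF) with leukaemia inhibitory factor (LIF). The iPS-derived NSC were differentiated from such iPS cells, so the reporter and lacZ background was shared by all groups, and the integrated vector by both derived groups. The labels do not say how many colonies or animals stand behind a group, nor that replicates came from separate cultures, so p-values here measure the spread between these samples, which may be technical.

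The markers went against the names of both derived groups. Pou5f1, which encodes Oct4, measured 13.00 to 13.45 log2 in the arrays labelled iPS-derived NSC, against 4.49 to 4.78 in those labelled iPS and 4.50 to 4.62 in brain NSC. Fabp7, a fatty acid binding protein of neural progenitors, measured 14.15 to 14.19 in the arrays labelled iPS and 4.23 to 4.65 in those labelled iPS-derived NSC. The pluripotency gene Zfp42 and the neural progenitor factor Olig2 were divided in the same way. The groups are therefore called "labelled iPS" and "labelled iPS-derived NSC" throughout. The choice of members treats both derived groups alike, so the list would be the same if the names were exchanged, and only the direction of the comparison between the derived groups rests on them.

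Adult neural stem cells grown in culture divide under growth factors, and pluripotent cells divide under LIF; both rely on high output of ribosomes and protein. A gene that stands above brain NSC in a pluripotent population and in a neural one is not, by that alone, a marker of either cell type. The genes described here come from many families. Among the roles assigned to them, protein synthesis, transcription and signal relay were the most common. The shares of these roles among all genes were not counted, so nothing is read from that order.

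Of the 90 members, 35 lay on chromosome 8 (38.9%), by the RefSeq gene table of assembly GRCm38.p6. Chromosome 8 held 432 of the 7303 genes that met the limit on level (5.92%). Members were thus 8.1% of those 432 genes and 0.8% of the 6871 genes on other chromosomes, where 55 members lay. The next highest shares were 1.71% on chromosome 7, with 9 members, and 1.45% on chromosome 11, also with 9. Chromosomes 13 and 18 held 0 members. In the other direction, 150 genes were at least 0.8 lower than brain NSC in both derived groups. Of these, 1 lay on chromosome 8 (0.667%). Their limit on level was a brain NSC mean of at least 7, so they were drawn from a set that overlaps the 7303 without matching it. The share of chromosome 8 in that set was not counted, so nothing is read from the 0.667%. No test is given for the count on chromosome 8, since it was noticed in these data before the members were listed, and DNA copy number was not analysed here.

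**Figure D1:**
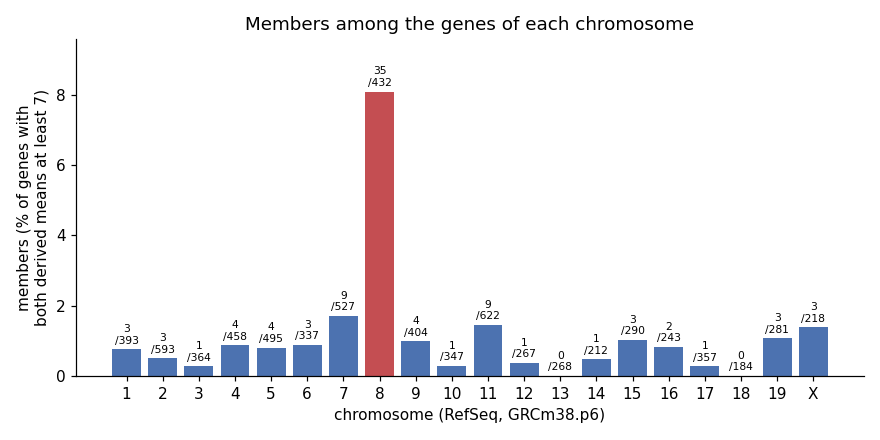
Bars give the members as a percentage of the genes of each chromosome whose mean level was at least 7 in both derived groups, with both counts printed above. Chromosome 8 stands at 8.1%, and the next bar, chromosome 7, at 1.71%.

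The members on chromosome 8 are shown by the starts of 7 of them, because an ETS-type motif was in 46.4% of their promoter windows and in 14.3% of those of the remaining members; they were picked after these shares were seen. Sequences came from RefSeq windows of GRCm38.p6 that run from 250 bases before to 50 bases after a gene's start. Windows were found for 67 members and were not found for 23. On chromosome 8, 9 members had the motif before the gene's start, and Cars2 and Slc7a6os are not shown. The shares count windows over their whole length, while the lines stop at the gene's start. Each line gives, 5′ to 3′ on the gene's strand, the ETS-type letters CCGGAAG or their reverse complement in capitals, with up to 30 bases on each side and nothing past the gene's start.
Wwp2 (chr8:107436307-107436369, plus strand): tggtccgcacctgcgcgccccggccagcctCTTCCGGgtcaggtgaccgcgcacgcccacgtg
Setd6 (chr8:95715873-95715912, plus strand): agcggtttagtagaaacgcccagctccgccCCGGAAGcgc
Zc3h18 (chr8:122376532-122376598, plus strand): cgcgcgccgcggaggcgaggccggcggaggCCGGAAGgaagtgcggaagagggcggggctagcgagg
Ddx49 (chr8:70302472-70302509, minus strand): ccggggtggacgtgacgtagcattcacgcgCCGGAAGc
Farsa (chr8:84856934-84856985, plus strand): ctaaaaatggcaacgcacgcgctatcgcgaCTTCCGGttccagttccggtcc
Nip7 (chr8:107056744-107056810, plus strand): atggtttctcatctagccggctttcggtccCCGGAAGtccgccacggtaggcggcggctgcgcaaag
Dhps (chr8:85071686-85071752, plus strand): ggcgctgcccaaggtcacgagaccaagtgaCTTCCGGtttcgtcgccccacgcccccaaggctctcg
These genes encode a ubiquitin ligase (Wwp2), a lysine methyltransferase (Setd6), a zinc finger RNA processing factor (Zc3h18), an RNA helicase (Ddx49), a subunit of phenylalanyl-tRNA synthetase (Farsa), a ribosome assembly factor (Nip7) and deoxyhypusine synthase (Dhps).

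The letters CCGGAAG were in 13 of 28 windows of members on chromosome 8 (46.4%) and in 8 of 56 windows of other members (14.3%), or 21 of the 84 windows of all members. They were in 89 of 369 windows of the chromosome 8 genes that met the limit on level without being members (24.1%), in 1651 of 7692 windows of all genes that met it (21.5%), and in 8.86% of all windows. A further 8 motifs were searched on both strands, and the letters of none of the 9 lie within those of another. The GC box GGGCGG was in 64.3% of member windows, against 66.8% for all genes that met the limit on level. The CCAAT box was in 26.2%, against 38.7%, and the E-box CACGTG in 5.95%, against 11.1%. The TATA box TATAAA was in 11.9%, against 6.14%. The CRE letters TGACGTCA were in 3.57%, against 3.5%, the octamer ATGCAAAT in 2.38%, against 0.988%, and the AP-1 letters TGANTCA in 5.95%, against 4.24%. The amino acid response letters TGATGNAAT were in 1 member window (1.19%), against 0.351%. Split by chromosome, these last 4 were in at most 3 windows of either set of members, with AP-1 in 3 of the 28 on chromosome 8 (10.7%) and 2 of the 56 elsewhere (3.57%). A gene can have several windows, and a match is a description of letters, not a site.

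Among the arrays, brain NSC replicate 4 stood apart. Its values correlated with the other brain NSC arrays at 0.990 to 0.992 over all probe sets, while replicates 1 to 3 correlated with each other at 0.995 to 0.997. With the labelled iPS arrays it correlated at 0.990, and replicates 1 to 3 did at 0.982 to 0.986. Hybridisation controls averaged 10.91 to 11.16 in labelled iPS, 10.55 to 11.04 in the other derived group, with brain NSC at 10.13 to 10.95. The 3′ minus 5′ difference of Actb, a sign of RNA integrity, was 0.50 to 0.67, 0.42 to 0.57 and 0.16 to 0.43 in the same order. Labelled iPS lay above all brain NSC arrays in this measure, and labelled iPS-derived NSC overlapped their upper end. The part of these measures in the members' differences was not tested.

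Relative to brain NSC, the labelled iPS arrays were higher by a median of 0.94 log2 over the 90 members, with a range of 0.80 to 2.15. The labelled iPS-derived NSC arrays were higher by a median of 1.36, with a range of 0.81 to 3.57. Over all 18193 genes the medians were 0.01 and 0.13. The smaller of a member's differences was the one of labelled iPS in 71 of 90 members, and it reached 1 log2 unit in 27. With a call set at an adjusted p under 0.05 in limma and at least a 2-fold difference, 32 members were called higher in labelled iPS, where 0.951% of all genes were, and 68 in labelled iPS-derived NSC, where 11.3% were. All labelled iPS arrays lay above all brain NSC arrays in 83 members (92.2%), against 22.4% of the 7303 genes that met the limit on level, and all labelled iPS-derived NSC arrays did in 84 (93.3%), against 36.2%. Since the choice used these contrasts, nothing is read from any of these counts. In bulk RNA, more cells that express a gene and more RNA per cell cannot be told apart.

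**Figure D2:**
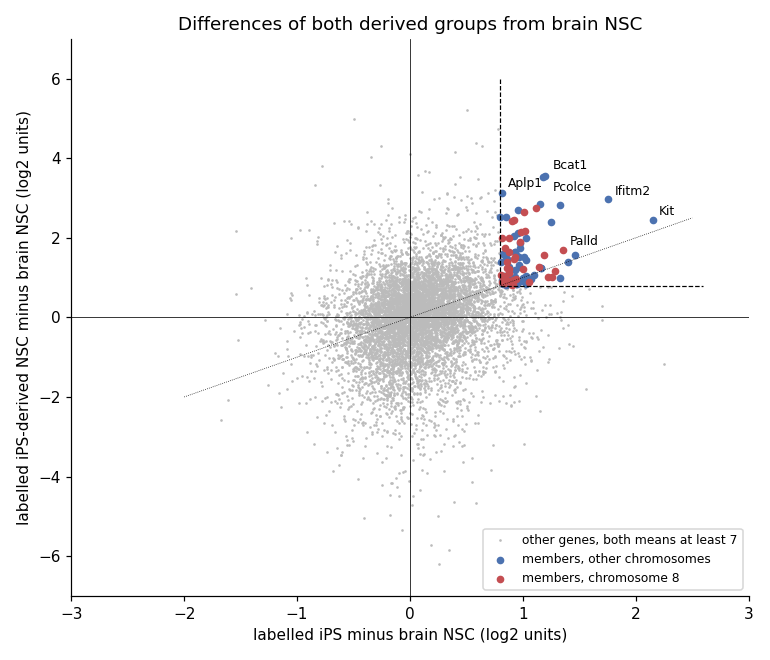
Each point is a gene with a mean level of at least 7 in both derived groups, plotted by its differences from brain NSC in log2 units, with dashed lines at the limits of 0.8 and a dotted line where both differences are equal. Members on chromosome 8 in red and members elsewhere in blue fill the upper right corner, where Kit is farthest to the right at 2.15 and Bcat1 highest at 3.57.

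At the limit of 0.8, the members with the smallest margin were Gm6958 at 0.80, Gtpbp3 at 0.81 and Tradd at 0.81. The genes just outside were Fbxo31 at 0.80, Rnf167 at 0.79 and Tmppe at 0.79, of which Fbxo31 also lies on chromosome 8. A further 12 genes met the limits on the difference but had a mean under 7 in a derived group, the highest of them at 6.72, while the lowest such mean of a member was 7.10.

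Between the derived groups, 20 members (22.2%) were called higher in labelled iPS-derived NSC than in labelled iPS, where 10.8% of all genes were called higher. In the same limma fit the count called lower was 0, where 14.4% of all genes were called lower. The count of 0 called lower follows largely from the choice: only a member at least 1.8 above brain NSC in labelled iPS could lie a full unit lower in the other group. Kit alone was that far above, and it was not lower in labelled iPS-derived NSC. At an unadjusted p under 0.05 with no minimum difference, 45 of 90 members were higher and 0 lower, against 37.2% and 27.6% of all genes. The median difference was 0.34 over the members and 0.12 over all genes, and -0.02 over the 7303 genes that met the limit on level. The choice also shapes the counts called higher and the median of the members. Both derived groups had to pass the same limit, and the smaller difference was that of labelled iPS in 71 of 90 members. The shares of all genes called also include genes under the limit on level. Nothing is therefore read from setting the members against all genes here. In 52 members the derived groups lay within 0.5 log2 units of each other. Among the members on chromosome 8, 8 of 35 were called higher (22.9%), and among the rest 12 of 55 (21.8%).

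**Figure D3:**
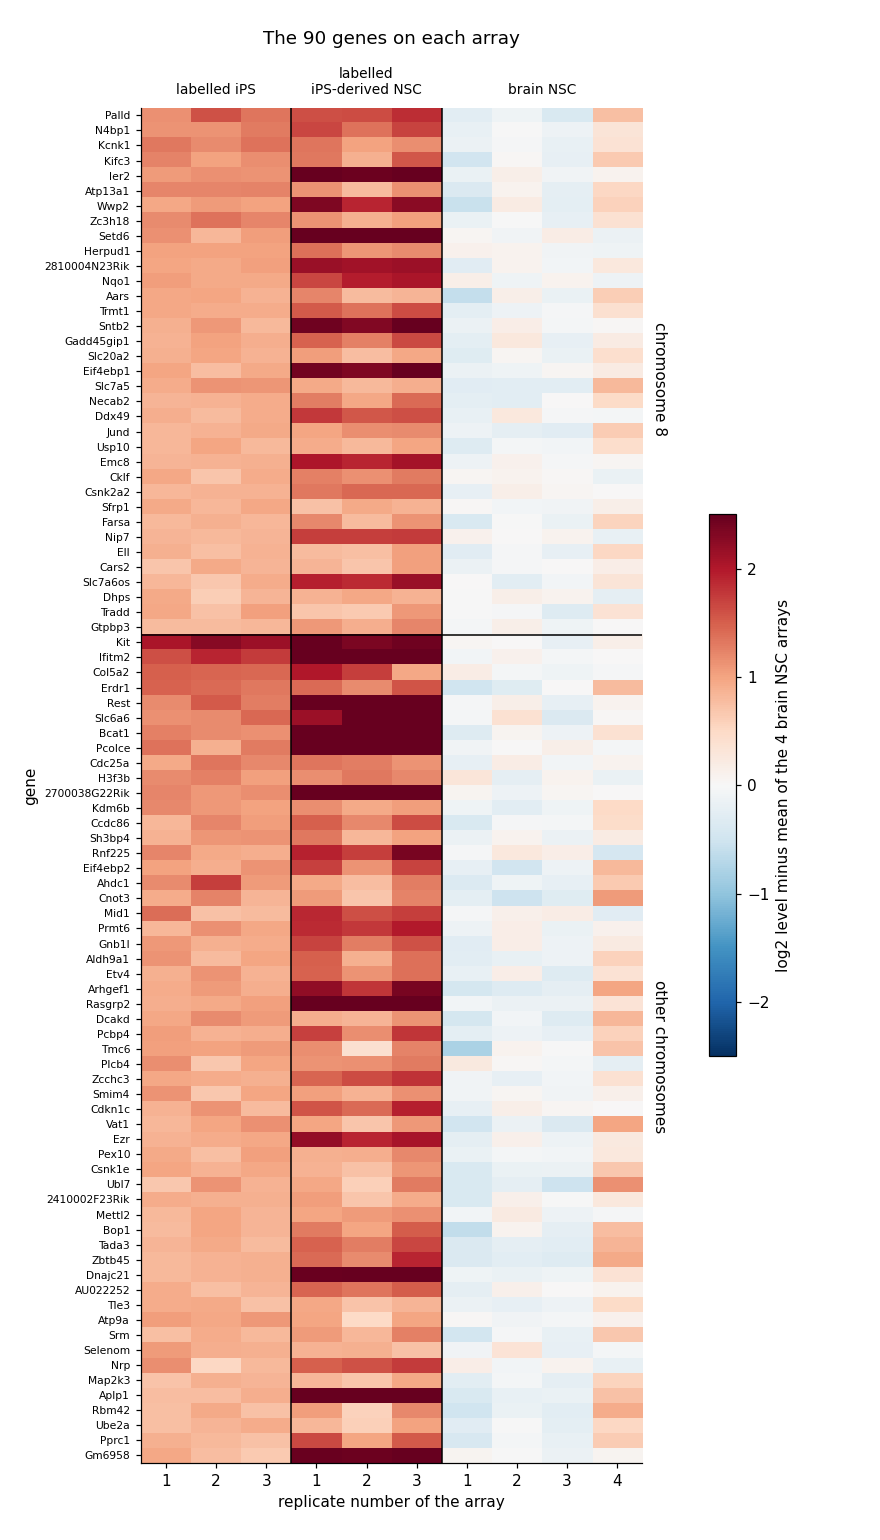
Rows are the 90 members, with chromosome 8 above the line and each block ordered by the smaller difference, and columns are the 10 arrays by replicate number. Colour gives the log2 level minus the mean of the 4 brain NSC arrays and is saturated beyond 2.5; the derived arrays are red, brain NSC replicates 1 to 3 lie near white or pale blue, and replicate 4 is pale red in many of the rows.

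The members are described below by role. The roles were assigned after their values were seen, and 23 members were left without one. Of the genes named, those outside the fixed rule for names were chosen by known role after their values were seen. For the counts called in roles and lists, 0.951% of all genes were called higher than brain NSC in labelled iPS and 11.3% in labelled iPS-derived NSC. The counts of a list include its members, whose differences from brain NSC were used to choose them. Between the derived groups 10.8% were called higher in labelled iPS-derived NSC. For members this share is no neutral background, since the choice shapes their difference between the derived groups. The shares of all genes called lower than brain NSC were not counted, so nothing is read from the counts called lower.

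Receptors and signal relay proteins made up 10 members, 4 of them on chromosome 8, with a median difference from brain NSC of 0.92 in labelled iPS and 1.21 in labelled iPS-derived NSC. Kit, the receptor tyrosine kinase for stem cell factor, measured 8.78, 9.02 and 8.88 log2 in labelled iPS, 9.35, 9.09 and 9.17 in labelled iPS-derived NSC, and 6.79, 6.76, 6.54 and 6.89 in brain NSC. All 6 derived arrays lay above all 4 brain arrays, by 4.44-fold in the mean of labelled iPS and 5.49-fold in that of labelled iPS-derived NSC. The derived groups differed by 0.31 ± 0.11 (SE; limma adjusted p = 0.0318), which is under the 2-fold limit. A second Kit probe set, at a lower level, was 1.35 and 1.81 above brain NSC. Kitl, which encodes the ligand of Kit, was not a member: its means were 11.73 in labelled iPS, 5.63 in labelled iPS-derived NSC and 11.67 in brain NSC.

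Kit was the only member among 33 measured receptor tyrosine kinases and ligands. Of those 33, 2 were called higher and 2 lower in labelled iPS than in brain NSC, with a median of 0.01, and 5 higher and 12 lower in labelled iPS-derived NSC, with a median of -0.25. Kit was also the only member among 14 germline genes. Of the 14, 12 were called higher and 1 lower in labelled iPS-derived NSC than in brain NSC. In labelled iPS, 1 was called higher than brain NSC, which was Kit itself, and 0 lower.

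Rasgrp2, an exchange factor that activates Rap GTPases, measured 7.55, 7.60 and 7.67 in labelled iPS, 9.23, 9.23 and 9.55 in labelled iPS-derived NSC and 6.58, 6.51, 6.51 and 6.997 in brain NSC. The 3 levels were separate, with labelled iPS between the others, and the derived groups differed by 1.73 ± 0.14 (SE; limma adjusted p = 8.56e-08). Arhgef1, an exchange factor for RhoA, measured 8.21, 8.35 and 8.20, then 9.51, 9.08 and 9.66, and in brain NSC 6.85, 6.96, 7.07 and 8.28. Its brain NSC replicate 4 lay within the range of labelled iPS, and the derived groups differed by 1.17 ± 0.29 (SE; limma adjusted p = 0.00342).

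Sfrp1, a secreted antagonist of Wnt ligands on chromosome 8, measured 7.89, 7.77 and 7.91 in labelled iPS, 7.67, 7.89 and 7.81 in labelled iPS-derived NSC, and 6.97, 6.87, 6.85 and 7.09 in brain NSC. The derived groups overlapped each other and not brain NSC. It was the only member among 20 measured antagonists of BMP and Wnt, of which 1 was called higher and 0 lower in labelled iPS than in brain NSC, and 2 higher and 3 lower in labelled iPS-derived NSC. The remaining members with this role were Tradd, an adaptor of the tumour necrosis factor receptor, Map2k3, a kinase upstream of p38, Csnk2a2 and Csnk1e, catalytic subunits of casein kinases, the chemokine-like factor Cklf, and Plcb4, a phospholipase C. Their differences between the derived groups ran from -0.10 to 0.53, none of them called.

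Transcription and chromatin regulators made up 13 members, with medians of 0.96 and 1.40 above brain NSC, and 3 of them were called higher in labelled iPS-derived NSC than in labelled iPS. Rest, the repressor of neuronal genes outside neurons, measured 8.93, 9.29 and 9.04 in labelled iPS, 10.78, 10.52 and 10.43 in labelled iPS-derived NSC, and 7.73, 7.90, 7.55 and 7.85 in brain NSC. Each group was separate from the others, and the derived groups differed by 1.49 ± 0.13 (SE; limma adjusted p = 2.35e-07). The higher level in labelled iPS was not shared by its 3 other probe sets, which lay -0.06 to 0.24 above brain NSC there. Rest was the only member among 21 DNA methylation and chromatin regulators. Of the 21, 1 was called higher than brain NSC in labelled iPS, which was Rest itself, and 0 lower. In labelled iPS-derived NSC, 10 were called higher than brain NSC and 1 lower.

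Setd6, on chromosome 8, measured 7.72, 7.41 and 7.62 in labelled iPS, 9.12, 9.20 and 9.34 in labelled iPS-derived NSC, and 6.63, 6.48, 6.75 and 6.42 in brain NSC. Its groups did not overlap, and brain NSC replicate 4 was the lowest of its group. The derived groups differed by 1.64 ± 0.12 (SE; limma adjusted p = 2.81e-08).

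Ier2, an immediate early gene on chromosome 8, measured 8.98, 9.07 and 9.04 in labelled iPS, 10.87, 10.37 and 10.79 in labelled iPS-derived NSC and 7.76, 8.07, 7.84 and 8.01 in brain NSC. Jund, a member of the AP-1 family on the same chromosome, measured 10.24, 10.29 and 10.37, then 10.41, 10.57 and 10.60, and 9.30, 9.21, 9.13 and 10.05 in brain NSC. Ier2 differed between the derived groups by 1.64 ± 0.13 (SE; limma adjusted p = 9.17e-08), and Jund by 0.23 ± 0.19 (SE; limma adjusted p = 0.313). These were the members among 20 immediate early genes; 2 of the 20 were called higher and 0 lower in labelled iPS than in brain NSC, and 5 higher and 4 lower in labelled iPS-derived NSC.

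Kdm6b, a demethylase of histone H3 lysine residues, was 1.10 above brain NSC in labelled iPS and 1.06 in labelled iPS-derived NSC, and its derived groups differed by -0.04 ± 0.16 (SE). H3f3b, a gene of the replacement histone H3.3, was 1.16 and 1.23 above. Its probe set was dim, with means of 7.23 and 7.30 in the derived groups and 6.07 in brain NSC. Etv4, an ETS family factor, was 0.96 and 1.32 above. The elongation factor Ell on chromosome 8, the corepressor Tle3, the acetyltransferase subunit Tada3, the zinc finger factor Zbtb45 and the coactivator Pprc1 were 0.81 to 0.86 above in labelled iPS. In all 5 the brain NSC replicate 4 array was the highest of its group. Prmt6, an arginine methyltransferase, was 0.98 and 1.88 above brain NSC on its brightest probe set, while its other probe set differed by -0.02 in labelled iPS and -2.69 in labelled iPS-derived NSC. Its probe sets therefore disagree in direction.

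Protein synthesis and RNA handling was the largest role, with 19 members, of which 11 lay on chromosome 8. Their medians above brain NSC were 0.88 in labelled iPS and 1.07 in labelled iPS-derived NSC, and 13 of 19 had derived groups within 0.5 log2 units. Aars, alanyl-tRNA synthetase, measured 12.08, 12.11 and 11.98 in labelled iPS, 12.35, 11.92 and 11.96 in labelled iPS-derived NSC, and 10.53, 11.27, 10.95 and 11.73 in brain NSC. Its lowest derived array, at 11.92, lay above the highest brain array, replicate 4. A second Aars probe set gave 0.97 and 0.90 above brain NSC.

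Farsa measured 10.14, 10.21 and 10.16 in labelled iPS, 10.53, 10.12 and 10.44 in labelled iPS-derived NSC and 8.96, 9.32, 9.16 and 9.88 in brain NSC. Dhps, which makes the hypusine residue of translation factor eIF5A, measured 10.02, 9.69 and 9.92, then 9.92, 10.02 and 9.92, and 9.05, 9.22, 9.15 and 8.83 in brain NSC. In Dhps the brain NSC replicate 4 array was the lowest of its group, and a second probe set was 0.90 and 1.08 above brain NSC. Cars2, the mitochondrial cysteinyl-tRNA synthetase, was 0.83 and 0.86 above. These 4 genes lie on chromosome 8, and none differed between the derived groups by more than 0.19 log2.

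Eif4ebp1 and Eif4ebp2, which encode repressors of the cap-binding factor eIF4E, were both members, but only the first lies on chromosome 8. Eif4ebp1 measured 11.79, 11.57 and 11.76 in labelled iPS, 13.22, 13.13 and 13.33 in labelled iPS-derived NSC, and 10.65, 10.70, 10.85 and 11.01 in brain NSC. Its derived groups differed by 1.52 ± 0.11 (SE; limma adjusted p = 4.45e-08). Eif4ebp2 was 1.01 and 1.51 above brain NSC on its brightest probe set, but its 4 other probe sets lay between -0.85 and 0.06 at the smaller of their differences. Nip7 measured 11.36, 11.33 and 11.37, then 12.24, 12.25 and 12.27, and 10.62, 10.53, 10.60 and 10.32 in brain NSC, so its groups did not overlap. Its other probe set was 0.43 above brain NSC in labelled iPS and -1.12 in labelled iPS-derived NSC.

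Dnajc21, a cochaperone of ribosome maturation, measured 8.74, 8.80 and 8.82 in labelled iPS, 10.42, 10.42 and 10.55 in labelled iPS-derived NSC, and 7.83, 7.78, 7.84 and 8.30 in brain NSC. Its derived groups differed by 1.67 ± 0.13 (SE; limma adjusted p = 5.93e-08). Dnajc21 and Eif4ebp1 were the 2 members of this role that were called. Bop1, a factor of the large ribosomal subunit, was 0.88 and 1.26 above brain NSC, and Srm, spermidine synthase, 0.83 and 1.05. The tRNA methyltransferase genes Trmt1 and Mettl2, the mitochondrial tRNA modification gene Gtpbp3 and the mitochondrial ribosome gene Gadd45gip1 were 0.81 to 0.93 above brain NSC in labelled iPS. Trmt1 and Gadd45gip1 were the only members of chromosome 8 that were next to each other among the 432 genes.

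Cnot3, a subunit of the CCR4-NOT deadenylase, measured 10.46, 10.78 and 10.40 in labelled iPS, 10.60, 10.24 and 10.79 in labelled iPS-derived NSC and 9.30, 9.03, 9.24 and 10.61 in brain NSC. The replicate 4 array of brain NSC lay within both derived groups, and the other 3 lay below them. Rbm42, an RNA-binding protein, had the same arrangement, with 10.06 in replicate 4 and 8.62 to 8.97 in the other 3. Zc3h18, on chromosome 8, was the member of this role with the largest difference in labelled iPS, at 1.26, and was 1.01 above brain NSC in labelled iPS-derived NSC.

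Ubiquitin and protein quality genes made up 7 members, 4 of them on chromosome 8. N4bp1, a regulator of ubiquitin ligases, measured 10.60, 10.60 and 10.78 in labelled iPS, 11.14, 10.84 and 11.17 in labelled iPS-derived NSC and 9.29, 9.46, 9.35 and 9.79 in brain NSC. Herpud1, a component of endoplasmic reticulum degradation, measured 9.43, 9.43 and 9.44, then 9.81, 9.54 and 9.61, and 8.53, 8.51, 8.35 and 8.33 in brain NSC. Both had derived arrays above every brain array. Wwp2 measured 7.76, 7.86 and 7.80, then 9.12, 8.70 and 9.05, and 6.24, 6.995, 6.55 and 7.38 in brain NSC, where its spread was wider. The derived groups of Wwp2 differed by 1.15 ± 0.22 (SE; limma adjusted p = 0.00052), but by 0.40 when its probe sets were averaged, where it was no longer called. Usp10, a deubiquitinase, was 0.88 and 0.91 above brain NSC, and Ube2a, a ubiquitin-conjugating enzyme, 0.85 and 0.81. The other Ube2a probe set was 0.69 above in labelled iPS but differed by -0.64 in labelled iPS-derived NSC. Ubl7, a ubiquitin-like protein, was 0.89 and 0.96 above, with brain NSC replicate 4 at 8.72 and the other 3 at 7.06 to 7.35. Mid1, a ubiquitin ligase on chromosome X, was 0.98 and 1.74 above.

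Transporters and channels made up 6 members, 4 of them on chromosome 8, and this role had the higher median in labelled iPS, at 1.14 against 0.98 in labelled iPS-derived NSC. Slc7a5, which carries large neutral amino acids, measured 10.45, 10.64 and 10.62 in labelled iPS, 10.47, 10.32 and 10.42 in labelled iPS-derived NSC and 9.24, 9.26, 9.24 and 10.33 in brain NSC. The first 3 brain arrays lay close together, and replicate 4 lay within the range of labelled iPS-derived NSC. Slc7a5 and Aars were the members among 17 genes of the amino acid stress response, of which 1 was called higher and 0 lower in labelled iPS than in brain NSC, and 4 higher and 1 lower in labelled iPS-derived NSC.

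Kcnk1, a 2-pore potassium channel, was 1.28 and 1.17 above brain NSC, Atp13a1, a pump of the endoplasmic reticulum, 1.23 and 1.02, and Slc20a2, a phosphate transporter, 0.92 and 0.93; all 3 lie on chromosome 8. The flippase Atp9a was 1.03 and 0.83 above. Slc6a6, the taurine transporter, measured 8.47, 8.50 and 8.75 in labelled iPS, 9.47, 9.85 and 9.82 in labelled iPS-derived NSC and 7.27, 7.70, 6.97 and 7.36 in brain NSC, and was the only one of the 6 called between the derived groups (1.14 ± 0.17, SE; limma adjusted p = 4.02e-05).

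Matrix and cytoskeleton genes made up 6 members, with medians of 1.16 and 1.88 above brain NSC, and 3 were called between the derived groups. Pcolce, an enhancer of procollagen processing, measured 8.94, 8.46 and 8.88 in labelled iPS, 11.04, 11.06 and 11.18 in labelled iPS-derived NSC and 7.49, 7.58, 7.72 and 7.52 in brain NSC. The derived groups differed by 2.34 ± 0.12 (SE; limma adjusted p = 1.2e-09). Col5a2, a fibrillar collagen chain, measured 8.05, 8.01 and 7.99, then 8.55, 8.29 and 7.53, and 6.74, 6.50, 6.45 and 6.54 in brain NSC. Col5a2 was lowest in labelled iPS-derived NSC replicate 3, and its derived groups overlapped.

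Per the labels iPS cells were grown on fibroblasts, and the levels of fibroblast markers are given beside these collagen genes. Of 15 such markers 14 were measured, and 0 were members. Their mean level was 5.52 to 5.55 in labelled iPS and 5.53 to 5.63 in brain NSC, and 6.81, 6.49 and 5.90 in replicates 1, 2 and 3 of labelled iPS-derived NSC, the same order as Col5a2 and not that of Pcolce. In labelled iPS-derived NSC, 6 of the 14 were called higher than in brain NSC and 1 lower, and their part in the difference of Col5a2 and Pcolce was not tested. The marker lists of pluripotent cells, neural stem cells, microglia, endothelium, neurons, astrocytes and the oligodendrocyte lineage also held 0 members.

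Palld, an actin-associated protein on chromosome 8, measured 9.56, 10.00 and 9.76 in labelled iPS, 10.02, 10.05 and 10.26 in labelled iPS-derived NSC and 8.15, 8.30, 8.04 and 9.17 in brain NSC. It was the chromosome 8 member with the largest smaller difference, at 1.36, yet its 3 other probe sets lay at -0.36 to 0.48. Sntb2, a syntrophin on chromosome 8, measured 8.46, 8.64 and 8.37, then 9.99, 9.88 and 10.15, and 7.42, 7.73, 7.52 and 7.61 in brain NSC, and its 3 other probe sets lay at 0.90 to 1.12. Its derived groups differed by 1.52 ± 0.11 (SE; limma adjusted p = 4.85e-08). Ezr, which links actin to the membrane, differed between the derived groups by 1.14 ± 0.13 (SE; limma adjusted p = 2.87e-06). Kifc3, a kinesin on chromosome 8, was 1.14 and 1.25 above brain NSC.

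The members with metabolic or cell cycle roles were few. Bcat1, a branched-chain amino acid transaminase, measured 8.44, 8.35 and 8.31 in labelled iPS, 10.84, 10.56 and 10.81 in labelled iPS-derived NSC and 6.84, 7.24, 7.04 and 7.56 in brain NSC. It had the largest difference between the derived groups of any member, 2.37 ± 0.15 (SE; limma adjusted p = 9.62e-09), or 5.18-fold. Nqo1, a quinone reductase on chromosome 8, measured 7.76, 7.65 and 7.65, then 8.38, 8.67 and 8.75, and 6.87, 6.61, 6.79 and 6.58 in brain NSC. It was the only member among 15 metallothionein and glutathione genes, of which 0 were called in labelled iPS against brain NSC, and 5 higher and 2 lower in labelled iPS-derived NSC. The peroxisome assembly gene Pex10 and the aldehyde dehydrogenase Aldh9a1 were 0.90 and 0.97 above brain NSC in labelled iPS. Cdkn1c, an imprinted inhibitor of cyclin-dependent kinases, measured 7.50, 7.74 and 7.41, then 8.18, 8.05 and 8.57, and 6.41, 6.77, 6.67 and 6.63 in brain NSC. Cdc25a, a phosphatase that activates those kinases, was 1.17 and 1.25 above on its brightest probe set. A second Cdc25a probe set, with a mean level of 9.30 against 9.67, was 0.11 above in labelled iPS and 1.13 in labelled iPS-derived NSC. Cdkn1c was the only member among 24 imprinted genes, of which 0 were called higher and 1 lower in labelled iPS than in brain NSC, and 12 higher and 5 lower in labelled iPS-derived NSC.

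Of the members left without a role, Ifitm2, an interferon-inducible membrane protein, measured 10.07, 10.36 and 10.20 in labelled iPS, 11.47, 11.28 and 11.52 in labelled iPS-derived NSC, and 8.38, 8.55, 8.41 and 8.45 in brain NSC. It was the member second to Kit in its difference in labelled iPS, at 1.76 or 3.38-fold, and its derived groups differed by 1.21 ± 0.10 (SE; limma adjusted p = 2.15e-07). Aplp1, a relative of the amyloid precursor protein, measured 8.46, 8.46 and 8.59, then 10.86, 10.50 and 11.11, and 7.31, 7.51, 7.52 and 8.41 in brain NSC, where replicate 4 lay just under labelled iPS. Erdr1 measured 13.40, 13.34 and 13.23, then 13.33, 13.10 and 13.49, and 11.43, 11.61, 11.94 and 12.71 in brain NSC, on a probe set that can cross-hybridise. Ahdc1 had the lowest difference between the derived groups, -0.33 ± 0.24 (SE; limma adjusted p = 0.253). The uncharacterised genes 2700038G22Rik, 2810004N23Rik and Gm6958 were called, with differences of 1.68, 1.15 and 1.73 between the derived groups, as were Emc8, a subunit of the membrane insertion complex of the endoplasmic reticulum, at 1.13 and Slc7a6os at 1.17; 2810004N23Rik, Emc8 and Slc7a6os lie on chromosome 8. The other Emc8 probe set went the other way, with means of 8.17 in labelled iPS and 7.27 in labelled iPS-derived NSC, where brain NSC was at 7.80. Tmc6, Rnf225 and Gnb1l were 1.03, 1.02 and 0.97 above brain NSC in labelled iPS, and 0.935, 2.01 and 1.52 above in labelled iPS-derived NSC. They were dim in brain NSC, with means of 6.39, 6.20 and 6.25. The lowest labelled iPS-derived NSC array of Tmc6, at 6.79, lay under its highest brain NSC array, at 7.09. The other Rnf225 probe set was 0.14 above in labelled iPS and 0.84 in labelled iPS-derived NSC.

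The higher level on chromosome 8 was not limited to the members. The 397 chromosome 8 genes that met the limit on level without being members had medians of 0.41 to 0.45 above the mean of brain NSC replicates 1 to 3 in the 3 labelled iPS arrays and 0.35 to 0.41 in the 3 labelled iPS-derived NSC arrays. The 6816 other genes that met the limit and were no members had medians of 0.01 to 0.05 in all 6 arrays. Of the 432 chromosome 8 genes that met the limit on level, 93.1% were above brain NSC in labelled iPS and 69.9% in labelled iPS-derived NSC. In both groups 66.0% were above, against 32.0% of the 6871 genes elsewhere. With no limit on level, the shares of 940 chromosome 8 genes were 73.9%, 71.4% and 52.4% in both. Those of all 18193 genes were 51.6%, 62.7% and 35.1%. Brain NSC replicate 4, in which the members were raised, gave a median of 0.06 for the 397 genes.

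**Figure D4:**
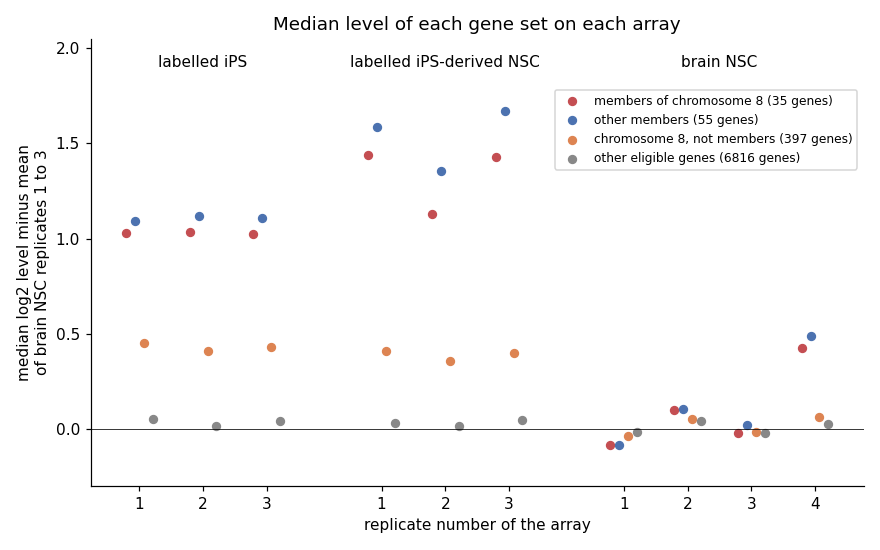
Points give the median log2 level of each gene set on each array, minus the mean of brain NSC replicates 1 to 3, for arrays set side by side by group; eligible genes are those with both derived means at least 7. The non-member genes of chromosome 8 lie at 0.35 to 0.45 in all 6 derived arrays and at 0.06 in brain NSC replicate 4, where the members on chromosome 8 lie at 0.43 and the other members at 0.49.

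Along chromosome 8 the members were spread over nearly the whole order of genes, from place 21 to place 426 of 432, with a longest gap of 55 genes. In 5 consecutive blocks of 86 or 87 genes they numbered 4, 5, 7, 11 and 8, or 4.6%, 5.81%, 8.05%, 12.8% and 9.3% of the genes there. The median difference of labelled iPS from brain NSC was 0.37 to 0.55 in every block, and that of labelled iPS-derived NSC was 0.29 and 0.17 in the first and second and 0.58 to 0.76 in the other three.

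**Figure D5:**
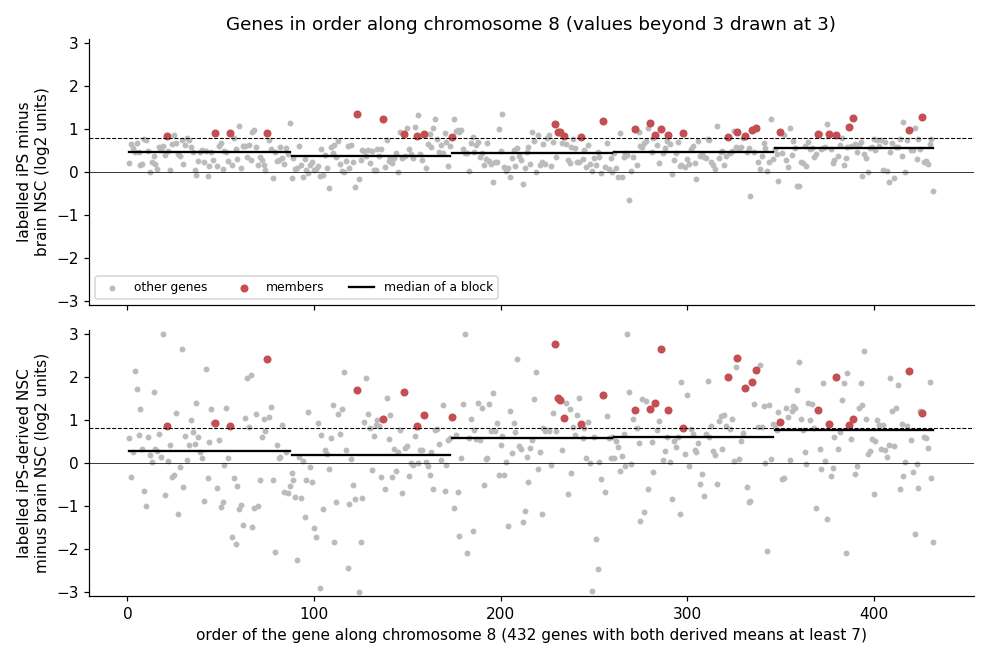
The 432 chromosome 8 genes with both derived means of at least 7 are drawn in order along the chromosome, with members in red, the limit of 0.8 as a dashed line and the median of each of 5 blocks as a black bar. In the upper panel, labelled iPS, the bars lie at 0.37 to 0.55, and in the lower panel, labelled iPS-derived NSC, at 0.17 to 0.76 with a wider scatter.

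The brain NSC arrays were not alike over the members. Against the mean of replicates 1 to 3, replicate 4 was higher in 74 of 90 members, by a median of 0.45, and at least 0.5 higher in 39; among all 7303 genes that met the limit on level, 53.1% were higher in replicate 4 and 13.3% at least 0.5 higher. Replicate 4 was the highest brain array in 60 members and reached the lowest labelled iPS array in 7. Without it, 177 genes met the limits, 87 of them among the 90, and 50 of the 177 lay on chromosome 8 (28.2%). In those 177, replicate 4 itself lay above the other brain arrays by a median of 0.67. Without brain NSC replicate 1, 2 or 3 in turn, 70, 85 and 75 genes met the limits, and the array left out had medians of -0.17, 0.06 and -0.11.

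Each derived array was also left out of the choice in turn, and its own value then read against the same brain NSC mean that the choice had used. Genes chosen without a labelled iPS array numbered 90, 95 and 91, and 100% of them were above brain NSC in the array left out, by medians of 0.94, 0.92 and 0.93. Of these, 83.3%, 71.6% and 85.7% were at least 0.8 above, against 3.55% to 4.03% of all genes that met the limit on level. Without a labelled iPS-derived NSC array the lists numbered 89, 101 and 81, and 95.5%, 69.3% and 98.8% were at least 0.8 above in the array left out, against 16.7% to 19.2%. The replicate 2 array of each derived group was the one with the lowest share. These readings are not independent of the choice, which used the same brain NSC mean and the other arrays of the group. They describe how alike the arrays of a group were over these genes, and no more is read from them.

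Other probe sets gave a second reading of 66 members, and 24 had a single probe set. Of 127 other probe sets, 100 were above brain NSC in both derived groups (78.7%) and 23 were at least 0.8 above in both (18.1%). Where both means were at least 7, 46 of 52 were above in both (88.5%) and 18 at least 0.8 above (34.6%), against 31.2% and 1.26% of 4288 further probe sets of non-members at that level. The 6 that were not above in both belonged to Ccdc86, Eif4ebp2, Emc8 and Ube2a, which were below brain NSC in labelled iPS-derived NSC, and to Ezr and Rest, at -0.02 and -0.06 in labelled iPS. Zcchc3 and Gm6958, with 1.04 and 0.96 at the smaller difference of the second probe set, exceeded their brightest, and Pcbp4 lay at 0.89 and 1.06 in its other probe sets. The brightest probe set can cross-hybridise in 12 members, by its identifier.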

How the data were processed

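RNA from 10 samples was hybridised to 10 Affymetrix arrays: 3 labelled iPS, 3 labelled iPS-derived NSC and 4 brain NSC, grouped by title. The authors deposited log2 values per probe set, made with RMA per the submitters' processing notes; its version was not given in the sources used. The method makes array distributions alike, so a shift common to most genes would be largely lost, and differences of dim genes are compressed. The number of arrays limits the precision.

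Of 45101 probe sets, 64 were controls, 34945 had 1 symbol in the platform annotation, 932 had several and 9160 had none. For 18193 genes the brightest probe set with 1 symbol was taken, and 18141 were placed on a chromosome through the RefSeq table. The limma package, version 3.58.1, was run in R 4.3.3 (lmFit and eBayes, 3 groups, 7 residual and 5.95 prior degrees of freedom), with two-sided p-values adjusted by Benjamini-Hochberg over 18193 genes; the script was tested on simulated data. A call needs an adjusted p under 0.05 and a difference of at least 1 log2 unit. The rest was done in Python 3.11.15 with matplotlib 3.10.9, numpy 2.4.6 and pandas 2.3.3.

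The members and lists were chosen with earlier results of these data known. Genes named were the 10 with the largest smaller difference overall and on chromosome 8, the 5 with the largest difference in each direction between the derived groups, the 3 on each side of the limit, all members of the lists, the 5 lowest in brain NSC, the 3 whose probe sets differ most, and further members by known role. Alternatives were each array left out, a replicate block, normalization, choice of probe set, filters, fit and limits. 0 pairs of arrays were identical.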

Additional observations from a re-analysis of the deposited data

Results flagged for a closer look

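In 9 of the 90 members, brain NSC replicate 4 lay far above the other 3 brain NSC arrays, by the gap to the nearest array divided by the range of the group, set against Dixon's critical value for 4 arrays. Chance flags about 1 in 20 groups. The rule was run on the members only, so no share over all genes is given, and the brain NSC values were also used to choose the members. Nothing is therefore read from setting the 9 of 90 against chance. The replicate 4 values in log2 were 10.27 for Aldh9a1 (others 9.44 to 9.57), 8.28 for Arhgef1 (6.85 to 7.07), 6.997 for Rasgrp2 (6.51 to 6.58), 9.08 for Pcbp4 (8.26 to 8.38) and 10.33 for Slc7a5 (9.24 to 9.26). They were 8.93 for Tada3 (7.73 to 7.86), 8.26 for Zbtb45 (6.96 to 7.05), 8.30 for Dnajc21 (7.78 to 7.84) and 9.09 for Tle3 (8.42 to 8.48). Of these genes, 1 lies on chromosome 8, Slc7a5. In 0 members was another brain NSC array, or the lowest one, set apart in this way.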

How the results depend on the processing

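The count of 90 members ranged from 70 to 177 when 1 array was left out, the highest without brain NSC replicate 4. The fit with the replicate number as a block also gave 177, since it uses brain NSC replicates 1 to 3 only; 50 of them lay on chromosome 8, and it gave 20 calls between the derived groups, as without it. The 9 correlations of same-numbered arrays between groups were -0.19 to 0.05, with 2 of 9 best with their own number, so the arrays share only a number. Averaging the probe sets of a gene gave 42 members, 15 on chromosome 8 and 13 called. A limit of 1 on the difference gave 27 members, 10 on chromosome 8, and a limit of 0.6 gave 249 and 81. With no minimum difference, 41 members were called higher (45.6%) and 0 lower, against 34.6% and 26.6% of all genes. The choice of members shapes these counts too. The share on chromosome 8 ran from 28.2% to 41.9% over the 20 settings that could change it. Quantile normalization gave 90 members and 23 calls, and median centring 92 and 20; they moved the median of all genes between labelled iPS-derived NSC and brain NSC from 0.13 to 0.09 and 0.10. Of the differences of named genes under these alternatives, 716 kept their side of the threshold, 20 passed it anew, 1 no longer passed it (Wwp2, 0.40) and 0 reversed.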
